A study of Mus musculus with 4 samples.

Results

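The RNAs described here are the small nucleolar RNAs (snoRNAs) and Cajal body RNAs (scaRNAs) that had signal in a transcriptome of mouse pancreatic islets. They were taken from a deposited table of 33923 transcript rows as the non-coding rows whose symbol begins with Snora or Snord and a digit, or with Scarna, each symbol used once. The class held 114 symbols, of which 100 had a mean over the 4 libraries of at least 1 RPKM (reads scaled by row length and by library depth) and are called members. The members were thus chosen by their measured RPKM in these same libraries, and their levels are given as a description. The members comprised 64 C/D box RNAs of 69 symbols, 32 H/ACA box RNAs of 36 and 4 scaRNAs of 9. Of the 14 symbols under the minimum, 4 were listed at 0 in every library and 10 had at least 1 read.

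The islets came from male C57bl6 mice aged 3 months and were combined in a single pool, kept overnight in RPMI with 11 mM glucose and then for 2 h in 2.8 mM glucose. One group of 2 libraries (LoGlu) was then held at 2.8 mM glucose and the other group of 2 libraries (HiGlu) at 16.8 mM glucose. The study's design gives 12 h for both groups, whereas the sample labels give 2 h for LoGlu and 12 h for HiGlu, so that the time at 2.8 mM glucose is uncertain. Because the libraries derive from a single pool, the p-values below measure only the spread between these libraries. In whole islets, fewer cells of a type and less RNA per cell cannot be told apart.

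snoRNAs are short nucleolar RNAs, most of which are cut out of the introns of longer host transcripts. C/D box snoRNAs guide methylation of the ribose of ribosomal RNA, and H/ACA box snoRNAs guide the conversion of uridine to pseudouridine. scaRNAs do the same for the small nuclear RNAs of the spliceosome, in Cajal bodies. In mouse, many snoRNA hosts are genes for ribosomal proteins and translation factors, and others are non-coding genes that are named for the snoRNAs they carry.

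The sequences of 7 members are shown because these rows carry the clearest differences below. They were read from the NCBIM37 (mm9) mouse genome at the GENCODE vM1 positions and are written 5′ to 3′ on the strand of the gene. Capitals mark the C box letters TGATGA and the last CTGA (D box) in C/D RNAs. In H/ACA RNAs they mark the ANANNA closest to the middle (H box) and the ACA near the 3′ end. The first 3 lie in introns of the non-coding gene *2410006H16Rik*, at chr11:62416581-62416652 for *Snord49b*, chr11:62416952-62417023 for *Snord49a* and chr11:62418017-62418088 for *Snord65*, all on the plus strand. *Snord82* (chr1:88252836-88252905) and *Snora75* (chr1:88247744-88247876) lie on the minus strand in introns of *Ncl*. *Snord37* (chr10:80641695-80641758) lies on the plus strand in an intron of *Eef2*, and *Snora28* (chr12:112779152-112779278) on the plus strand in an intron of *Eif5*.
Snord49b: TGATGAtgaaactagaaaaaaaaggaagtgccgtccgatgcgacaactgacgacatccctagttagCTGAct
Snord49a: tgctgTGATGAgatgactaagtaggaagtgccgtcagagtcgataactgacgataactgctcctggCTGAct
Snord65: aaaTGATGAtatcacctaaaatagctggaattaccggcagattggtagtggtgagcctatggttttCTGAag
Snord82: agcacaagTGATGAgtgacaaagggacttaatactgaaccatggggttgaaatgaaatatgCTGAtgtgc
Snora75: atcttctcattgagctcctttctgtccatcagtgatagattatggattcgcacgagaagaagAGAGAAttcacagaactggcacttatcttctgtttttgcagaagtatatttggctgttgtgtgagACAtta
Snord37: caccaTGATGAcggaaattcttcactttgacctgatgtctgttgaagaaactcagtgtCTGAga
Snora28: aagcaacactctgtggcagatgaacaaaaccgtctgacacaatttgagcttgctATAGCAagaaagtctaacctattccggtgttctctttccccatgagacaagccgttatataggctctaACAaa

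Of 54 C/D members with a sequence, 35 (64.8%) held TGATGA and 54 (100%) held CTGA, against 13.0% and 50% of windows of the same length 300 bases upstream. Of 30 H/ACA members, 27 (90%) held ANANNA near the middle and 28 (93.3%) held ACA in the last bases, against 53.3% and 13.3% of such windows. The search read the strand of the gene alone, and the letters of the C and D boxes do not overlap. No pair among 83 members with a sequence shared a run as long as the 50-base reads. The longest run, of 45 bases, was shared by *Snord88a* and *Snord88c*, whose values are treated as uncertain, and *Snord49a* and *Snord49b* shared 13 bases. Members were compared only with each other, so matches elsewhere in the genome were not examined.

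Marker genes bore out the islet label. *Ins2*, which encodes an insulin, stood at 18136 and 15943 RPKM in LoGlu and 30018 and 27396 RPKM in HiGlu. The summed RPKM of 7 islet hormone genes was 23770 to 27080 in LoGlu and 44400 to 48300 in HiGlu, with 3 of the 7 called higher and 0 lower by limma. The 11 exocrine markers summed to 70.3 to 202 RPKM in LoGlu and 176 to 379 RPKM in HiGlu, with none of the 11 at 0 in every library. Endothelial, leukocyte and stromal lists each summed to at most 11.7 RPKM. The part of these cells, and of the rise in hormone transcripts, in the results was not tested.

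Each RPKM value of a member was converted to the whole number of reads it stands for, given library depths of 58460000 and 51960000 reads (LoGlu) and 60700000 and 50800000 reads (HiGlu). All 203 member values under 40 reads came out whole within 0.05 of a read. The members had a mean RPKM from 1.04 to 299 with a median of 8.21, and a mean of 3.5 to 1079 reads per library with a median of 40.5. Together they took 0.0292% and 0.0261% of all reads in LoGlu and 0.0224% and 0.0205% in HiGlu, so that both HiGlu libraries lay below both LoGlu libraries. A mean of under 20 reads was behind 33 members, and 29 members had 100 reads or more. The row intervals of 7 members are shorter than a read of 50 bases, and reads from a host transcript can overlap a member. A mature snoRNA and its host precursor therefore cannot be told apart in these rows. Whether the library preparation kept RNAs as short as mature snoRNAs is not given in the sources used here. Member RPKM values are therefore read densities of rows and were not shown to measure amounts of mature snoRNA. Row lengths can differ from the GENCODE positions used for the sequences. *Snord37* had 53 bases as a row and 64 at its position, and *Snord68* had 48 and 86.

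The value of 1 RPKM corresponds to few reads. Just above the minimum, *Snora78* rested on 3 and 9 reads in LoGlu and 8 and 15 in HiGlu, *Scarna3b* on 9, 7, 10 and 5, and *Snora33* on 2, 7, 14 and 5. Just below it stood *Scarna13* at a mean of 0.991 RPKM, *Snora26* at 0.912 RPKM and *Snora15* at 0.889 RPKM. The last 3 had about 16, 16, 11 and 16 reads, 9, 5, 9 and 2 reads, and 6, 6, 8 and 3 reads, which overlap the reads of the rows just above the minimum. *Snora19* and *Snord58b* each had a second row under the same identifier, and the row with the higher mean was used.

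The highest row was *Snord37*, a C/D RNA in an intron of *Eef2*, the translation elongation factor. It had 394 and 356 RPKM in LoGlu and 217 and 230 RPKM in HiGlu (1199, 962, 684 and 608 reads), and the groups did not overlap. *Snord34* and *Snord35a*, C/D RNAs in introns of the ribosomal protein gene *Rpl13a*, followed with 251 and 222 RPKM (LoGlu) against 189 and 168 RPKM (HiGlu), and with 237 and 204 RPKM against 189 and 168 RPKM. The highest H/ACA row was *Snora7a*, in an intron of *Rpl32*, with 177 and 164 RPKM in LoGlu and 138 and 128 RPKM in HiGlu. In 10 of the 12 highest rows both HiGlu values lay below both LoGlu values, against 48.3% of all transcripts tested below. The groups overlapped for *Snord96a* and *Snord33*. All 12 had a negative log2 fold change, against 65.2% of all transcripts tested. Of the 12, 2 rows, *Snord37* and *Snord2*, passed the test given next. *Snord34*, *Snord35a*, *Snord33* and *Snord32a* share the host *Rpl13a*, and *Snord96a* and *Snord95* overlap exons of their shared host *Gnb2l1*. The 12 rows are therefore not independent.

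**Figure D1:**
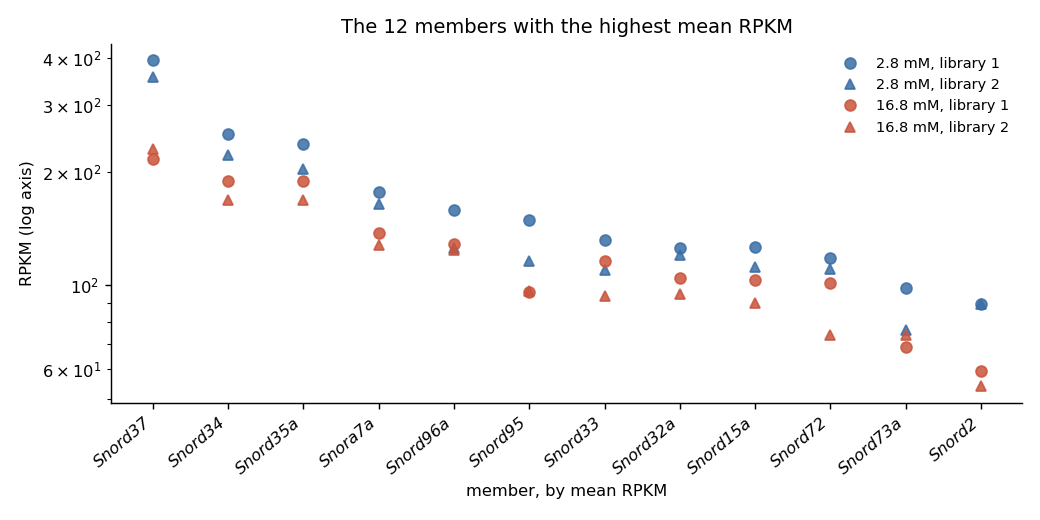
RPKM (log axis) of the 12 members with the highest mean RPKM in each of the 4 libraries; circles and triangles are libraries 1 and 2, blue for 2.8 mM and red for 16.8 mM glucose. *Snord37* is the highest at 217 to 394 RPKM, and *Snord96a* and *Snord33* are the rows whose groups overlap.

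Whether 16.8 mM glucose changed the members was asked with limma on log2(RPKM + 0.5), fitted on the 7867 transcripts whose mean reached 1 RPKM and adjusted by the Benjamini-Hochberg method over all of them. Fold changes are on that scale, which understates the change of low rows. Of 100 members, 23 were called lower at 16.8 mM (adjusted p under 0.05) and 1 higher. Across all transcripts tested, 22.8% were called lower and 10.7% higher (33.4% in either direction), so that the share of members called lower was that of the background and the share called higher was below it. Both HiGlu values lay below both LoGlu values for 54 members, against 48.3% of all transcripts, and above them for 6 members, against 22.2%. The median log2 fold change was -0.24 over the members and -0.11 over all transcripts tested, and 75 members against 65.2% of all transcripts were negative. With each library centered on its median, the median over all transcripts became -0.03, 68 members were negative, and 22 were called lower and 2 higher. Over all transcripts that centering gave 2103 lower and 1662 higher calls in place of 1790 and 838, and quantile normalization gave 2154 and 1576.

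The call of 1 member as higher rested on the choice of row. *Snord58b*, a C/D RNA in *Rpl17*, had 4.43 and 3.56 RPKM in LoGlu and 6.10 and 5.47 RPKM in HiGlu, from 14, 10, 20 and 15 reads (log2 fold change 0.49, SE 0.13, limma adjusted p = 0.0257). Its reads gave a HiGlu to LoGlu ratio of 1.44 with a 95% exact interval of 0.835 to 2.54, which covers counting error only. Its second row, at 3.55 and 0.363 RPKM against 1.55 and 0.743 RPKM, had a limma adjusted p of 0.799. With the second rows of *Snord58b* and *Snora19*, 23 members were called lower and 0 higher.

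The number of calls also depended on the library left out and on how reads were weighed. Without LoGlu replicate 2, 40 members were called lower and 7 higher, against 23.1% and 9.34% of all transcripts. Without HiGlu replicate 1 these were 31 and 7, against 23.7% and 9.08%. Without LoGlu replicate 1 they were 30 and 5, against 15.5% and 11.5%, and without HiGlu replicate 2 they were 19 and 6, against 13.5% and 9.74%. With limma voom on the recovered reads, which weighs each row by its depth, 14 members were called lower and 0 higher. The voom backgrounds were 23.5% and 11%, and the recovered reads of coding rows in them are less certain than those of short rows. At an unadjusted p under 0.05 the first fit had 36 members lower and 6 higher, against 31.7% and 14.1% of all transcripts. Of the 24 calls, 17 had a counting interval below a ratio of 1 and 7 had an interval that held 1.

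The largest differences among well-covered rows were those of the 3 C/D RNAs in *2410006H16Rik*, whose sequences head the list above. *Snord49b* had 63.5 and 53.4 RPKM in LoGlu and 28.4 and 19.4 RPKM in HiGlu, with a log2 fold change of -1.29 (SE 0.20, limma adjusted p = 0.00412). *Snord49a* had 47.4 and 42.3 RPKM against 21.6 and 18.7 RPKM (log2 fold change -1.13, SE 0.14, limma adjusted p = 0.00173). *Snord65* had 36.96 and 32.6 RPKM against 17.1 and 13.4 RPKM (log2 fold change -1.18, SE 0.16, limma adjusted p = 0.00233). For all 3, both HiGlu values lay below both LoGlu values. The host row had 18.4 and 15.7 RPKM in LoGlu and 7.45 and 6.53 RPKM in HiGlu, a log2 fold change of -1.23 (SE 0.13, limma adjusted p = 0.00106). The members held 25.8% of the reads of the host row, and member and host values can share reads.

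The next largest calls are given beside their hosts. *Ncl* encodes nucleolin, an abundant nucleolar protein. Its C/D RNA *Snord82* had 51.8 and 43.9 RPKM in LoGlu and 27.0 and 23.8 RPKM in HiGlu (log2 fold change -0.90). Its H/ACA RNA *Snora75* had 26.2 and 23.4 RPKM against 12.7 and 15.2 RPKM (log2 fold change -0.81), and the groups overlapped for neither. The log2 fold change of *Ncl* itself was -0.69. *Snora28* and its host *Eif5*, an initiation factor, fell by 0.76 and 0.75 on the log2 scale, and *Snord37* and *Eef2* fell by 0.75 and 0.70. *Snord12* fell by 0.73 and its host *1500012F01Rik* by 0.78, and *Snord87* fell by 0.75 and its host *Snhg6* by 0.46. *Snord2*, in the initiation factor gene *Eif4a2*, fell by 0.65 and the host by 0.49. *Snora81*, an H/ACA RNA in the same host, was also called lower, with a log2 fold change of -0.70. Other members of hosts with like functions were not called, such as *Snord66* in *Eif4g1* (0.05, host -0.20), *Snora19* in *Eif3a* (-0.02, host -0.29) and *Snora41* in *Eef1b2* (-0.25, host -0.22).

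Among the 12 largest log2 fold changes of rows called lower, 3 more had few reads. *Scarna10*, a Cajal body RNA in an intron of *Ncapd2*, had 13 and 10 reads in LoGlu and 5 and 2 in HiGlu (log2 fold change -1.37, ratio of reads 0.301, interval 0.109 to 0.726). Its mean was 2.96 RPKM in LoGlu and 0.87 RPKM in HiGlu, so that it reached the minimum through LoGlu alone and its call is partly fixed by the minimum. *Snord38a*, a C/D RNA, had 10 and 10 reads against 4 and 5, a ratio of 0.446 with an interval of 0.179 to 1.02. *Snord1c*, in *1810032O08Rik*, had 14 and 13 reads against 6 and 8, a ratio of 0.514 with an interval of 0.249 to 1.01. The intervals of the last pair thus held 1, and none of these 3 was called by voom. The other 11 members called lower had log2 fold changes between -0.70 and -0.30. *Snord43*, in *Rpl3*, had a log2 fold change of -1.14 on 12, 18, 3 and 11 reads and was not called (limma adjusted p = 0.12).

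**Figure D2:**
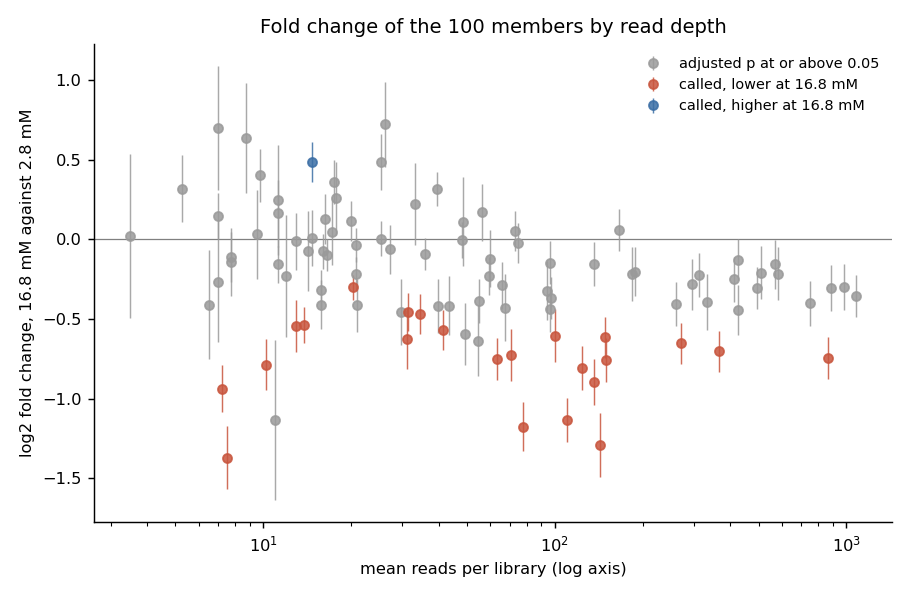
Log2 fold change at 16.8 mM against 2.8 mM glucose (bars, SE from limma) of the 100 members over the mean reads per library (log axis), colored by call. Members of 100 reads or more lie between -1.29 and 0.06, whereas members under 20 reads spread from -1.37 to 0.70.

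The members with the most reads moved mostly one way. Of the 29 members with 100 reads or more, 28 had a negative log2 fold change, with a median of -0.36, and 10 were called lower. Of the 38 with 20 to under 100 reads, 8 were called lower, and the median was -0.30. Of the 33 with under 20 reads, 15 had a positive log2 fold change, the median was -0.07 and 5 were called lower. Over all transcripts tested, at any depth, 65.2% were negative, the median was -0.11 and 22.8% were called lower. Some of the 29 members with 100 reads or more share a host, such as the 4 in *Rpl13a*, and are not independent. The largest positive values were those of *Snord111* (27 and 13 reads in LoGlu, 30 and 35 in HiGlu, log2 fold change 0.72, limma adjusted p = 0.0766) and *Snora33* (0.70, limma adjusted p = 0.20), which did not pass the test. *Snora33* and *Snora78* reached the minimum through HiGlu alone, with LoGlu means of 0.812 and 0.72 RPKM, so that their sign is partly fixed by the minimum.

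By class, 13 of 64 C/D members, 8 of 32 H/ACA members and 2 of 4 scaRNAs were called lower, against 22.8% of all transcripts tested. The class medians of log2 fold change were -0.25, -0.23 and -0.21, against -0.11 over all transcripts. The 2 scaRNAs were *Scarna10*, which reached the minimum through LoGlu alone, and *Scarna6*. *Scarna6* had a log2 fold change of -0.30 and a counting interval of 0.471 to 1.20, and voom did not call it. The classes differed more in level, with median mean RPKM values of 11.3 for C/D, 6.63 for H/ACA and 1.70 for scaRNAs. These are descriptions, and no difference between classes was tested.

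A host row was found for 97 members, in 72 host genes (58 coding, 14 non-coding), while *Snord104*, *Snord64* and *Snora30* had none. A host counted as coding if its row had a coding RefSeq identifier or RefSeq listed the gene as protein-coding. By this rule *1500012F01Rik* counted as coding, and whether each such host makes a protein was not examined. Of 84 members placed against exons, 71 lay wholly in introns and 13 overlapped an exon. Low values of multi-exon genes were mostly whole reads when scaled by the gene span, introns included, but the host rows themselves were not tested, so that the length behind a host RPKM is uncertain. On the deposited scale the log2 ratio of member to host ranged from -4.52 to 2.38 with a median of 0.42, and 67 members lay above their host and 30 below. *Snord11*, in *Nop58*, had a mean of 14.3 RPKM against 2.30 RPKM for the host, and *Snord53*, in *Wdr43*, had 7.34 against 1.01 RPKM. At the other end *Snora33* had 1.20 RPKM against 35.4 RPKM for *Rps12*.

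**Figure D3:**
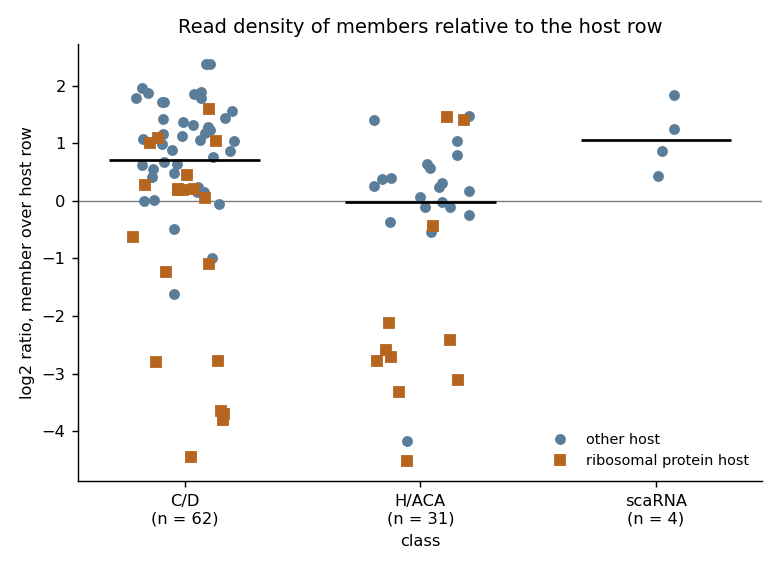
Log2 ratio of member RPKM to host RPKM (mean over 4 libraries) for 62 C/D, 31 H/ACA and 4 scaRNA members; squares have a ribosomal protein host, circles another host, and black lines are medians (0.72, -0.01 and 1.05). All but 1 of the ratios below -2 are squares.

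Among C/D members 48 of 62 lay above the host row, and among H/ACA members 15 of 31. The 31 members of 22 ribosomal protein genes had a median log2 ratio of -1.09, and 13 of them lay above the host. The 66 members of other hosts had a median of 0.78, and 54 lay above. These ratios depend on the uncertain length behind each host RPKM, whose part in the contrast was not tested. Of the 31 members in ribosomal protein hosts 2 were called lower, with a median log2 fold change of -0.21. Of the 66 others 21 were, with a median of -0.32, against 22.8% and -0.11 over all transcripts tested. The 21 members of non-coding hosts had a median log2 fold change of -0.42 and the 76 members of coding hosts -0.23.

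Of the 72 hosts, 60 passed the minimum, and 18 of them were called lower and 0 higher, 30% lower against 22.8% of all transcripts. At an unadjusted p under 0.05, limma had 31 of 60 hosts lower and 0 higher, against 31.7% and 14.1% of all transcripts, and voom called 32 of 70 (45.7%) lower and 0 higher, against 23.5% and 11%. The number of hosts called depended on the library left out. The median log2 fold change of the 60 hosts was -0.21 without LoGlu replicate 1 and -0.38 without LoGlu replicate 2. It was -0.36 without HiGlu replicate 1 and -0.25 without HiGlu replicate 2. All transcripts had medians of -0.06, -0.16, -0.16 and -0.06 in the same order. Of 23 members called lower, 13 had a host called lower, 7 a host that was not called and 3 a host under the minimum; 14 members that were not called had a host called lower. Across the 97 members the log2 fold changes of member and host had a Pearson r of 0.63 and a Spearman rho of 0.60, and across the 29 with 100 reads or more these were 0.91 and 0.83. The points share libraries, hosts and, in part, reads, and they are not independent. The absolute difference between member and host log2 fold change had a median of 0.08 with 100 reads or more (largest 0.28), 0.15 with 20 to under 100 reads, and 0.29 with under 20 reads (largest 1.48, *Scarna10*).

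**Figure D4:**
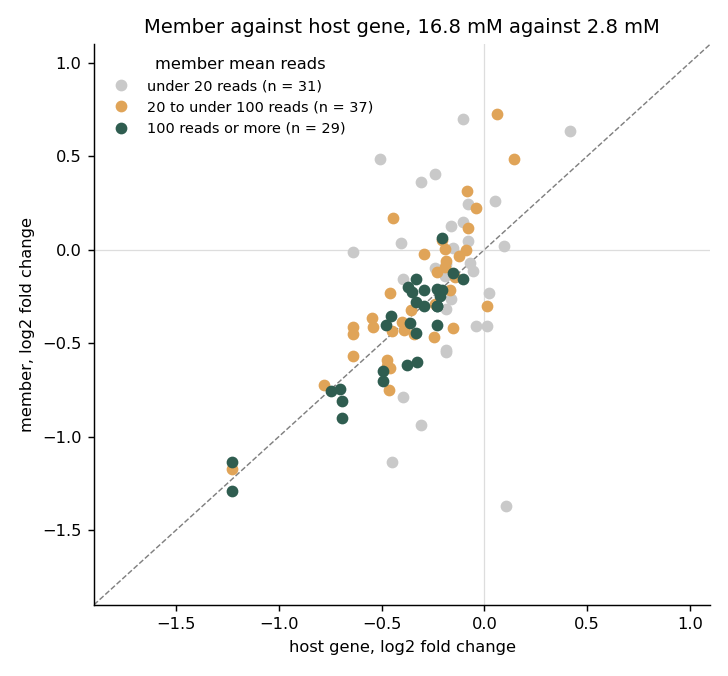
Log2 fold change (16.8 mM against 2.8 mM) of each of 97 members over that of its host row, colored by mean reads of the member; the dashed line marks equal change. Members of 100 reads or more lie within 0.28 of the line, and those under 20 reads scatter by up to 1.48.

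There were 4 hosts with 3 or more members. In *Rpl13a* the members stood in the order *Snord34*, *Snord35a*, *Snord33* and *Snord32a*, with means of 208, 199.6, 113 and 111 RPKM. Neighbors in the first and last pair differed by less than their spread over libraries. Their log2 fold changes were -0.40, -0.30, -0.21 and -0.30, none was called by limma (voom called *Snord34*, adjusted p = 0.0231), and the host had -0.23. In *Rpl23a* the means were 26.8 RPKM for *Snord42a*, 5.499 for *Snord42b* and 2.54 for *Snord4a*, against 41.5 RPKM for the host, and none was called. In *Snhg12*, a non-coding host that fell by 0.64 on the log2 scale, *Snora61* had 14.9 and 14.5 RPKM in LoGlu and 8.91 and 10.6 RPKM in HiGlu and was called lower (log2 fold change -0.57). *Snora16a* (-0.42), *Snora44* (-0.45) and *Snord99* (-0.01) of the same host were not called, on means of 13 to 43.25 reads. *Snora61*, *Snora44* and *Snord99* lie wholly in exons of *Snhg12*, so that reads of the host RNA can fall in their rows. The part of such reads in the call of *Snora61* was not tested.

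**Figure D5:**
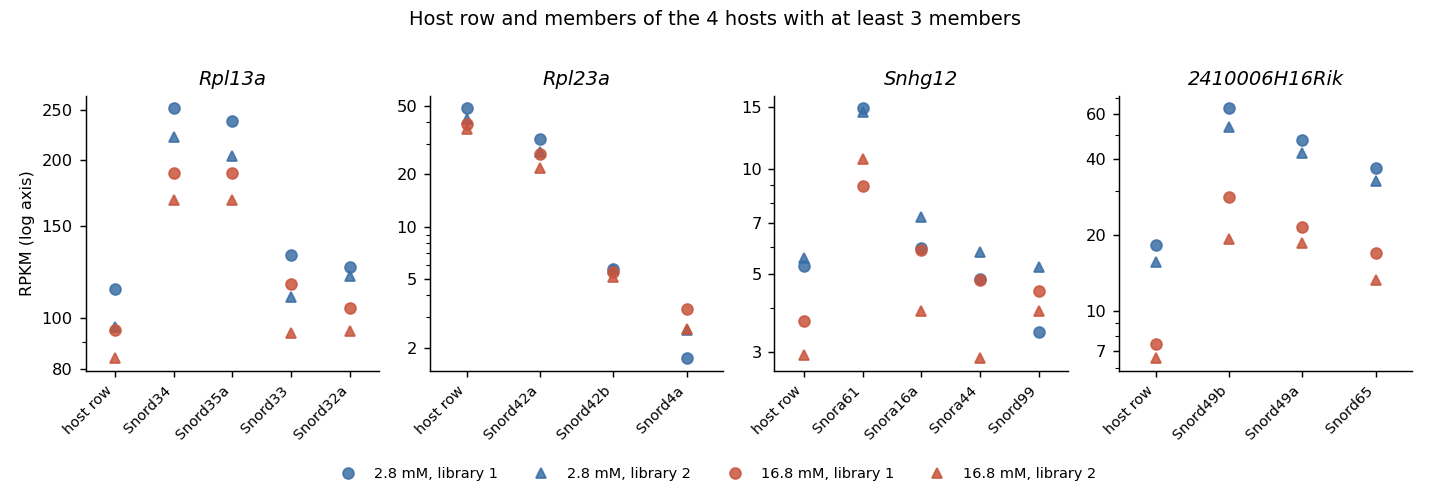
RPKM (log axis, own range in each panel) of the host row and of each member in the 4 hosts with at least 3 members, by library. In *2410006H16Rik* the HiGlu values of the host and all 3 members lie below the LoGlu values, and in *Rpl23a* the members span from 1.74 to 31.9 RPKM within a single host.

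The genes for proteins that bind, assemble or trim these RNAs were read from a list of 28. All had a row, 14 passed the minimum, and 4 (28.6%) were called lower, against 22.8% of all transcripts, and 0 higher, with a median log2 fold change of -0.27. *Nop58*, a core protein of C/D particles, had 2.92 and 2.59 RPKM in LoGlu and 1.98 and 1.72 RPKM in HiGlu (log2 fold change -0.47, limma adjusted p = 0.0129). *Gar1* and *Nhp2*, core proteins of H/ACA particles, had log2 fold changes of -0.39 and -0.34 (limma adjusted p = 0.0394 and 0.0396). *Wrap53*, which brings scaRNAs to Cajal bodies, had -0.36 (limma adjusted p = 0.0418). No gene of the list was higher at an unadjusted p under 0.05 by limma, and voom called 15 of 28 (53.6%) lower, against 23.5% of all transcripts, and 0 higher. Without LoGlu replicate 1, and likewise without HiGlu replicate 2, 1 gene of 14 was called (7.14%), against 15.5% and 13.5% of all transcripts called lower. The C/D core genes *Fbl* (-0.32), *Nop56* (-0.19) and *Nhp2l1* (-0.29) did not pass the test, nor did *Nop10* (-0.39).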

How the data were processed

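Islet RNA was read in 4 libraries (TruSeq, single reads of 50 cycles); per the labels the submitters' processing named STAR, bedtools, DESeq and mm9, and whether counting used strand is not given in the sources used here. The authors deposited RPKM values per RefSeq transcript; no replicate was pooled. Reads were recovered as RPKM times row length less 1 base times depth, the depth being the value that made short rows whole. Short RNA rows were whole within 0.05 of a read for 98.0 to 98.3% of values. Low values of multi-exon genes with 1 row were mostly whole by gene span (67.2 to 68.7%) and seldom by exon sum (8.8 to 10.7%). With the lengths used to recover reads, low values of coding genes with 1 row were whole for 58.7 to 59.6%. RPKM keeps no weight for depth, so voom on reads was an alternative. Its reads are approximate for coding rows, both in the background and among hosts and particle protein genes. Members, lists and host rule were chosen with earlier results of these data known. Positions came from GENCODE vM1 (NCBIM37), and for 84 members the host was the same-strand enclosing gene. For 13 members the host came from enclosing RefSeq genes (GRCm38), a step added after seeing the data. The same RefSeq genes gave the row lengths from which depths and reads were recovered. limma 3.58.1 in R 4.3.3 (trended empirical Bayes, 0.5 RPKM added) was tested on simulated data; other steps used Python 3.11.15. Named were the 12 highest members, at most 12 calls per direction, members of hosts with 3 or more, rows at the minimum, and called particle proteins. *Snord111*, *Snord11*, *Snord53*, *Snord43*, *Snord66*, *Snora19*, *Snora41*, *Snora81*, *Scarna6* and uncalled core proteins were named after their values were seen. The values of 1 host gene are not reported here.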

Additional observations from a re-analysis of the deposited data

How the results depend on the processing

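Adding 0.1 or 1 RPKM left all 24 member calls in place and the counts of called hosts and particle protein genes as they were. Of 24 members called, the count became 3 (3%) with no minimum on RPKM (28047 rows tested, 9.13% called). It was 44 of 92 (47.8%) with at least 1 RPKM in every library (39.6% of all transcripts). With voom on a mean of at least 20 reads it was 15 of 67 (22.4%, against 41.6% of all transcripts). With voom on at least 3 reads, chosen after seeing the data, it was 14 of 100 (14%, against 34.5%). The count of 18 called hosts of 60 became 7 of 72 with no minimum (9.72%, against 9.13% of all transcripts). Of 60 hosts, 28 were called without a variance trend (46.7%, against 32.5%) and 33 with quantile normalization (55%, against 47.4%). With libraries centered on their median 34 were called (56.7%, against 47.9%). With voom 32 of 69 were called at 20 reads (46.4%, against 41.6%) and 32 of 70 at 3 reads (45.7%, against 34.5%). The count of 4 called particle protein genes of 14 became 1 of 28 with no minimum (3.57%) and 15 of 28 (53.6%) with voom at either read minimum. Over all transcripts the count went from 2628 to 7936 with voom at 20 reads and 7791 at 3 reads. The cause was not tested, although no minimum and voom also change the rows tested.

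The replicate numbers are shared by the groups, but no label says that they mark a batch, and deviations of same-numbered libraries had a correlation of 0.31. With the replicate block 38 of 100 members, 37 of 60 hosts (61.7%) and 10 of 14 particle protein genes (71.4%) were called, against 4067 of all transcripts (51.7%). *Snord34*, *Snord35a* and *Snord32a* were among the members called. Voom with the block called 21 of 67 members (31.3%), 50 of 69 hosts (72.5%) and 20 of 28 particle protein genes (71.4%). It called 10792 of all transcripts (56.6%). Leaving out each library in turn gave 25 to 47 members, 9 to 29 hosts, 1 to 6 particle protein genes and a median log2 ratio to host of 0.39 to 0.49, with the lone library of a group assumed to vary like the others. That ratio was 0.49 with 0.1 RPKM added and 0.34 with 1 RPKM added, and the longest host transcript was not run, since its length is not in the table.

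Sign changes were seen in rows that were not called. *Snord99* had log2 fold changes of 0.077 with quantile normalization, 0.072 with centered libraries, 0.0066 with voom at 3 reads, and -0.29 to 0.26 with a library left out. *Snord96a* ranged from -0.32 to 0.0092 and *Scarna3b* from -0.36 to 0.14 with a library left out. Counts of under 20 reads limit 33 members, whose intervals cover counting error only.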
